A study of Canis lupus familiaris with 8 samples.

Results

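MYL4, ACTC1, TNNC1, MYOZ2 and ANKRD1 are transcripts of the contractile apparatus of heart muscle, and their signal was followed over anterior mitral valve leaflets of 8 dogs. The members were all probe sets whose only annotated symbol is 1 of these 5 names, which gave 1 probe set per gene, or 5 of 23836 probe sets on the array and 5 of 6540 named genes. All 5 were among the 14705 probe sets bright enough to be tested. The affected group held 4 dogs with degenerative mitral valve disease, in which leaflets thicken, lose their shape and leak. Its breeds were Lhasa apso for affected 1, Miniature poodle for both affected 2 and affected 4, and Dachshund for affected 3. The control group held 4 beagle crosses, so breed and disease cannot be told apart, and the labels used here give no ages. Each dog gave 1 Affymetrix array of total RNA from frozen leaflet, with no agent or transgene in either group. Every array had a trimmed mean signal of 500.1, with median signals from 124 to 192 in affected dogs and from 133 to 157 in control dogs, and the number of arrays limits the precision.

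Heart muscle contracts when myosin of the thick filament pulls on actin of the thin filament, and calcium starts each beat by binding a troponin on the thin filament. Z-discs anchor the thin filaments and hold proteins that sense load. The anterior mitral leaflet is continuous at its base with the wall of the left atrium, and strands of atrial heart muscle run into its proximal part, while the rest of the leaflet is fibrous tissue with interstitial cells under an endothelium. MYL4 encodes the essential myosin light chain of atrial muscle, ACTC1 the cardiac alpha actin, TNNC1 the calcium-binding troponin C of cardiac and slow muscle, MYOZ2 a Z-disc protein that binds calcineurin and alpha-actinin, and ANKRD1 an ankyrin repeat protein of the Z-disc region and nucleus that responds to stretch and stress. In such bulk tissue, fewer muscle cells and less RNA per muscle cell cannot be told apart.

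Heart muscle signal was present in all 8 leaflets and differed more between dogs of 1 group than between the groups. The mean log2 signal of the 5 genes was highest in control 2 and affected 2 and lowest in affected 3 and control 3, and the groups overlapped for each of the 5, while they did not overlap for 4.66% of the tested probe sets (2.31% lower in affected dogs). MYL4, ACTC1 and TNNC1 differed between the groups by less than their standard errors, while MYOZ2 and ANKRD1 averaged about 1 log2 unit lower in affected leaflets without passing the test. No member passed limma at an adjusted p of 0.05, and the same was true of 0 of 14705 probe sets, or 0%, with 1151 probe sets, or 7.83%, at an unadjusted p under 0.05 (3.81% lower and 4.02% higher in affected dogs). No member was among these. The members and gene lists were chosen with earlier results of these arrays known.

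MYL4 had MAS5 signals of 19849, 36788, 7068 and 16195 in affected dogs 1 to 4, against 16425, 35063, 12240 and 22579 in control dogs 1 to 4. Affected 2 and control 2 were the highest and affected 3 was the lowest, with all 4 controls inside the range of the affected dogs. The probe set was the brightest of its array in its best dog and ranked 424 of 23836 in its dimmest. Its difference was -0.23 ± 0.48 (log2 signal, affected minus control, with the standard error from limma, 4 dogs per group), with a 95% interval from -1.31 to 0.84 and an adjusted p of 0.912 in limma.

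ACTC1 had signals of 21783, 30263, 7055 and 16648 in affected dogs, against 13756, 21551, 11307 and 17021 in control dogs. Here too affected 2 was highest and affected 3 lowest, and the control values lay within the affected range. It was the only member with a positive difference, at 0.11 ± 0.42 (95% interval from -0.81 to 1.03, limma adjusted p = 0.957), and under quantile normalization its sign turned, at -0.13. Muscle actins are nearly identical in their coding sequence and the suffix of this probe set marks probes that can match several transcripts, so its signal may hold other actins. The smooth muscle actin ACTA2 was at 14.41, 13.91, 12.68 and 12.27 log2 in affected dogs, against 12.66, 13.60, 12.38 and 12.51 in control dogs. The share of other actins in the ACTC1 signal was not tested. The MYL4 probe set carries the same suffix, and which other transcripts it can match was not tested either.

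TNNC1 had signals of 13863, 31020, 4080 and 15463 in affected dogs, against 12535, 31778, 6737 and 18262 in control dogs. Control 2 and affected 2 had nearly the same top values, and affected 3 and control 3 were the bottom pair. The difference was -0.21 ± 0.61, with a 95% interval from -1.58 to 1.15 and an adjusted p of 0.941 in limma.

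MYOZ2 had signals of 1378, 5985, 1499 and 1726 in affected dogs, against 3687, 14265, 1790 and 5662 in control dogs. Each control lay above 3 of the affected dogs, and only affected 2 reached into the upper control values. The difference was -1.16 ± 0.64, or 0.447 times the control level, with a 95% interval from 0.168 to 1.19 times (limma adjusted p = 0.677).

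ANKRD1 had signals of 934, 2551, 409 and 809 in affected dogs, against 1183, 6185, 883 and 2241 in control dogs. Affected 2 was above 3 of the controls, and affected 1 lay above control 3. Its difference was -1.05 ± 0.66, or 0.483 times the control level, with a 95% interval from 0.175 to 1.33 times (limma adjusted p = 0.705). Intervals of all 5 members included no difference.

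**Figure D1:**
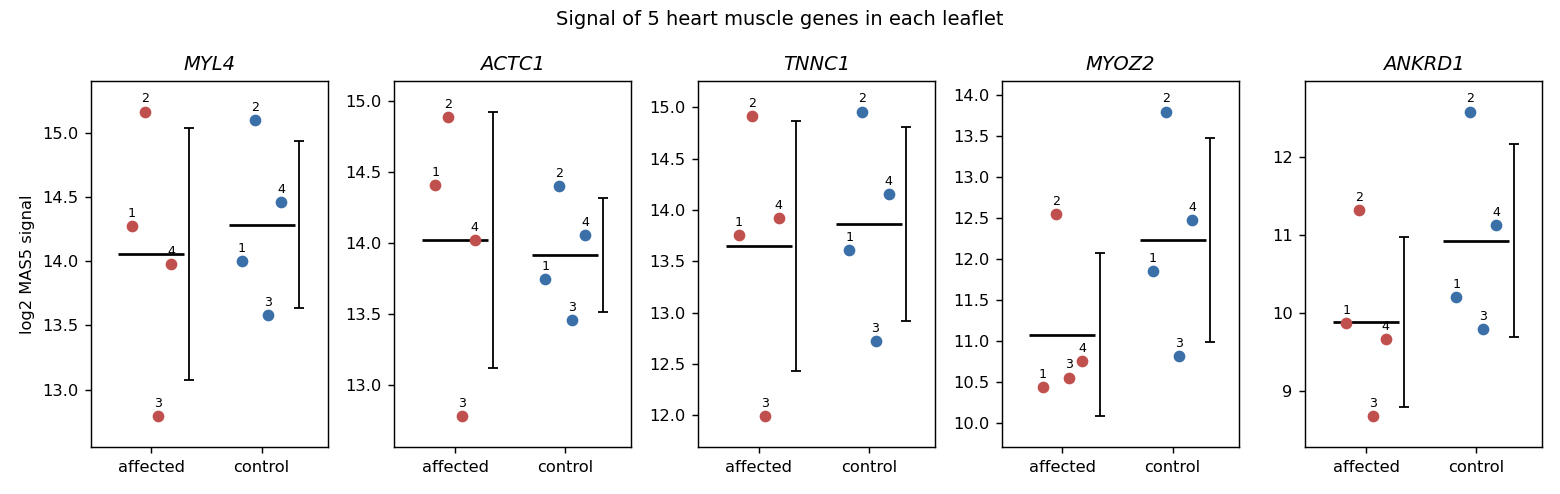
Log2 MAS5 signal (y axis) of the 5 genes in affected and control leaflets. Each numbered point is a dog, the horizontal line is the group mean and the bar beside it is 1 SD (n = 4). Points of the groups overlap in every panel, and affected 2 and control 2 are the highest of their groups for all 5 genes.

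Group means of MYL4, ACTC1 and TNNC1 were closer to each other than 1 SD of either group, while those of MYOZ2 and ANKRD1 lay about 1 SD apart. For MYL4 the means were 14.05 ± 0.98 (log2, SD, n = 4) in affected dogs and 14.29 ± 0.65 in control dogs. For ACTC1 they were 14.03 ± 0.90 in affected dogs and 13.92 ± 0.40 in control dogs, and for TNNC1 13.65 ± 1.22 in affected dogs and 13.86 ± 0.94 in control dogs. For MYOZ2 they were 11.07 ± 0.99 in affected dogs and 12.23 ± 1.25 in control dogs, and for ANKRD1 9.88 ± 1.09 in affected dogs and 10.93 ± 1.24 in control dogs. MYL4, ACTC1 and TNNC1 varied more among affected dogs, and MYOZ2 and ANKRD1 more among controls. Signals of different probe sets are not set against each other here, since probe sets differ in brightness.

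Over all 8 dogs the highest signal was 5.20 times the lowest for MYL4, 4.29 times for ACTC1, 7.79 times for TNNC1, 10.4 times for MYOZ2 and 15.1 times for ANKRD1. A range at least as wide as that of ANKRD1 was found for 3.11% of the tested probe sets, as wide as that of MYOZ2 for 5.41%, of TNNC1 for 8.93%, of MYL4 for 17.7% and of ACTC1 for 24.8%. The median probe set had a range of 1.46 log2 units and 5% had at least 3.45.

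The mean log2 signal of the 5 genes was 12.55, 13.77, 11.36 and 12.47 in affected dogs 1 to 4, against 12.68, 14.17, 12.07 and 13.25 in control dogs 1 to 4. The highest dog, control 2, was at 7.02 times the level of the lowest, affected 3. The range was 5.31 times among affected dogs and 4.28 times among control dogs. The group means differed by -0.51 log2 units, with SDs of 0.98 in affected and 0.89 in control dogs. Affected 2 and affected 4, both labelled Miniature poodles, differed by 1.30 log2 units, or 2.46 times. The part of breed in the spread was not tested. With 1 leaflet per dog, neighbours in this order cannot be tested against each other, and under quantile normalization and median centring affected 4 and affected 1, in the middle of the order, changed places.

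Single dogs carried the direction of the filament genes. Without affected 3 the differences of MYL4 and TNNC1 were 0.19 and 0.34, and without control 2 they were 0.04 and 0.15. ACTC1 was at -0.18 without affected 2 and at 0.52 without affected 3, with small negative values of -0.02 without affected 1 and -0.04 without control 3. MYOZ2 stayed between -1.65 without affected 2 and -0.64 without control 2, and ANKRD1 between -1.53 and -0.50 without the same dogs. Of these, control 2 and affected 2 moved both Z-disc genes most. MYOZ2 was also at -1.64 without control 3, and ANKRD1 was at -1.43 without control 3 and at -0.65 without affected 3.

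**Figure D2:**
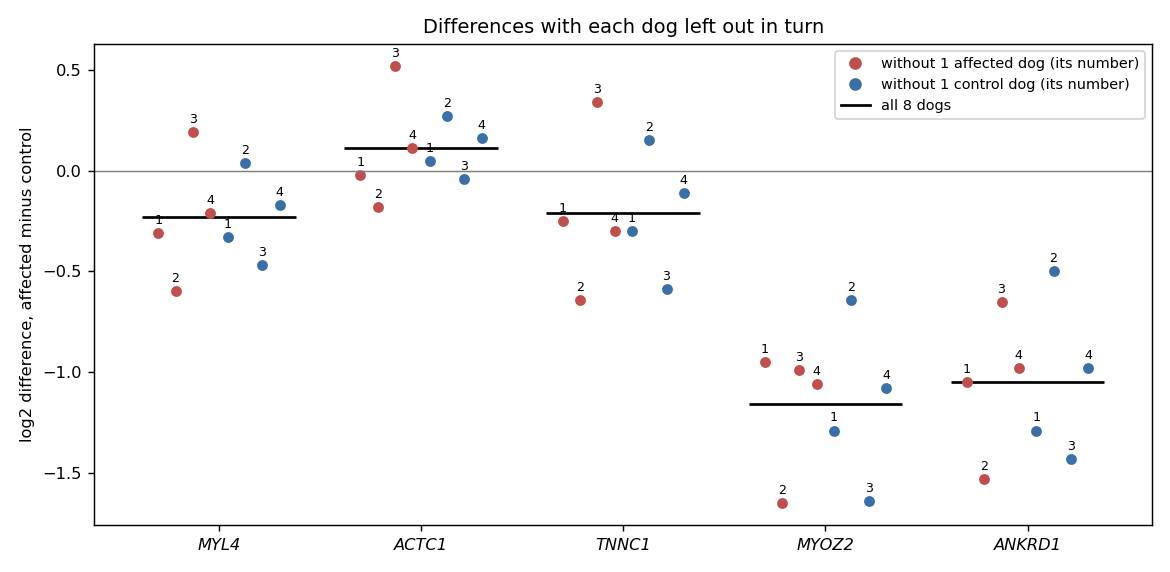
Log2 difference, affected minus control (y axis), of each gene with 1 dog left out. Red points leave out an affected dog, blue points a control dog, each marked with its number, and the black line is the value from all 8 dogs. MYL4, ACTC1 and TNNC1 have points on both sides of 0, while all points of MYOZ2 and ANKRD1 are below it.

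Dividing 1 member by another on the same array removes any factor that scales both signals equally. Muscle content is not removed where members follow it unequally. Their ranges over the dogs were unequal, at 2.38 log2 units for MYL4 and 3.92 for ANKRD1. Such a ratio shows unequal change and not which gene changed, and its absolute value has no meaning across probe sets. Its mean group difference is the difference of the gene on top minus that of the other gene. Only its values by dog therefore add to the differences given above. These ratios were examined after the values were seen and are given as a description. ANKRD1 over MYL4 was -4.41, -3.85, -4.11 and -4.32 on the log2 scale in affected dogs, against -3.80, -2.50, -3.79 and -3.33 in control dogs. In each group it was highest in the dog with the most muscle signal, affected 2 and control 2. The part of muscle content in this ratio was not tested. All 4 affected dogs lay below all 4 controls, though affected 2 and control 1 were only a little apart, and the mean differed by -0.82, or by -0.53 without control 2. It was the 1 of 10 pairs of members whose groups did not overlap, and the groups did not overlap in the same direction for 1.55% of the ratios of ANKRD1 to the other tested probe sets. That share was 1.22% for MYOZ2, 0.598% for MYL4, 0.401% for ACTC1 and 0.231% for TNNC1.

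The remaining pairs of a Z-disc gene and a filament gene overlapped. ANKRD1 over TNNC1 was -3.89, -3.60, -3.32 and -4.26 in affected dogs, against -3.41, -2.36, -2.93 and -3.03 in control dogs, with only affected 3 above a control. MYOZ2 over TNNC1 was -3.33, -2.37, -1.44 and -3.16 in affected dogs, against -1.77, -1.16, -1.91 and -1.69 in control dogs, where affected 3 stood among the controls. Mean differences of the 6 such pairs ran from -1.27 for MYOZ2 over ACTC1 to -0.82 for ANKRD1 over MYL4, and each stayed below 0 with any 1 dog left out. By contrast TNNC1 over MYL4 differed by 0.02 and ANKRD1 over MYOZ2 by 0.11, and both had either sign depending on the dog left out, from -0.13 without control 3 to 0.15 without affected 3 for the first and from -0.10 without affected 1 to 0.34 without affected 3 for the second.

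**Figure D3:**
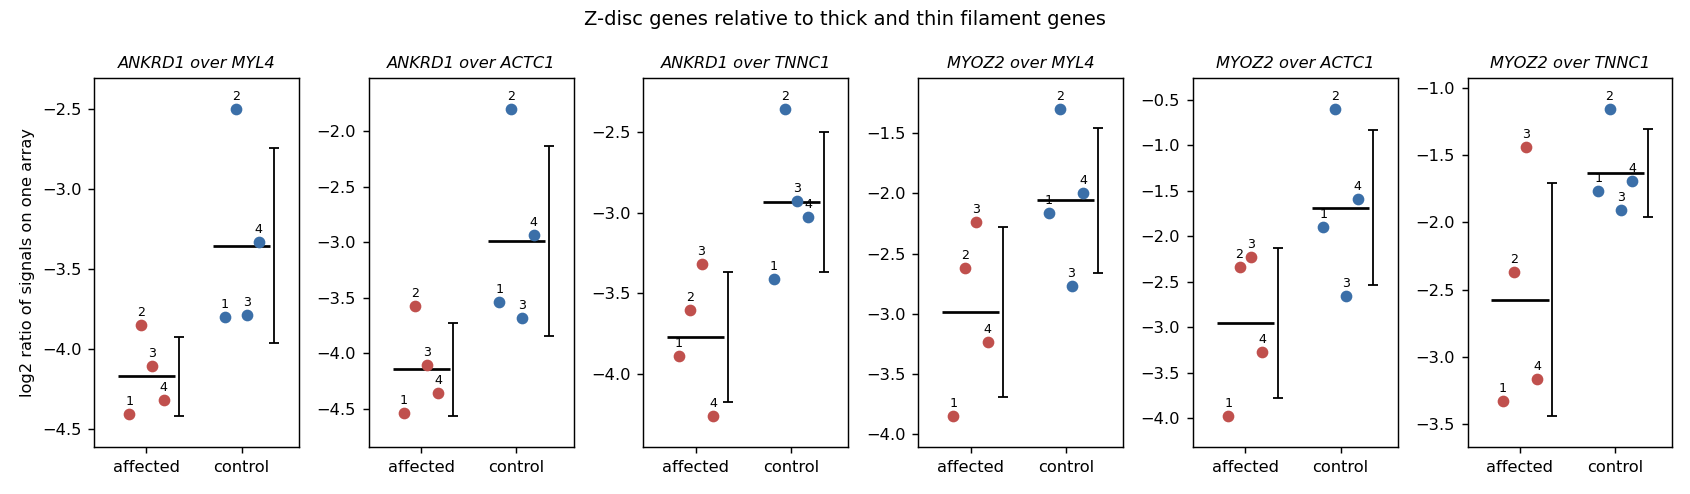
Log2 ratio of signals on 1 array (y axis) of ANKRD1 or MYOZ2 to each of MYL4, ACTC1 and TNNC1, in affected and control dogs. Numbered points are dogs, lines are group means and bars are 1 SD (n = 4). The affected mean is lower in all 6 panels, and the groups are apart only for ANKRD1 over MYL4.

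Set against the 56 other tested genes of the heart muscle lists, the ratio of ANKRD1 was lower in affected dogs by the mean for 50 genes and that of MYOZ2 for 51, with median differences of -0.53 and -0.64. The ratio of MYL4 was lower for 19 of 56, of TNNC1 for 17 and of ACTC1 for 7. By their arithmetic these counts only restate where the difference of each member lies among those of the 56 genes. Groups did not overlap for 4 of the 56 ratios of ANKRD1, or 7.14%, namely those to DES, HSPB7, KCNH2 and TPM1, against 1.55% of its ratios to all other tested probe sets. They did not overlap for 1 ratio of MYOZ2, or 1.79%, to KCNH2, which is near its share of 1.22% over all other tested probe sets. ACTC1 had 1 such ratio in the other direction, to the calcium release channel RYR2, or 1.79% of the 56, against 0.449% of its ratios to all other tested probe sets in that direction. These ratios share the member on top and are not independent of each other. TPM1 is taken here by the brightest of its 3 probe sets, whose differences had either sign.

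Many other heart muscle genes, but not all, were high and low in the same dogs. Of the 56 tested, 34 had Pearson's r of at least 0.8 with the member mean. It was negative for PDLIM3 (-0.66, lowest in control 2), NR2F2 (-0.37), FHL1 (-0.17), CACNA1C (-0.12) and GJA1 (-0.10). Genes that vary together are not independent, so the counts that follow are a description. The lists of heart muscle genes held 115 genes, of which 66 were named on the array and 61 tested, 56 of them besides the members. Of the 56, 46 had a negative difference and 10 a positive one, with a median of -0.52, against 2746 of 5438 genes, or 50.5%, and a median of -0.0056 over all genes tested. None passed at the adjusted threshold, and 1 of the 56 had an unadjusted p under 0.05, against 8.72% of all genes. Control 2 had the highest signal of the 8 dogs for 42 of the 56 genes, or 75.0%, and for 21.6% of all genes. Affected 3 had the lowest for 32, or 57.1%, and for 13.5% of all genes. Without control 2, 33 of 60 genes that were then tested, members included, had a negative difference, and without affected 3 also 33 of 60, compared with 50 of 61 with all dogs. The 56 further probe sets of 24 of these genes had 43 negative differences, and 1, of PAM at -0.87 ± 0.29, had an unadjusted p under 0.05.

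Of the thick filament and M-band genes, 8 of 8 tested had a negative difference and 0 passed, with a median of -0.53. With 1 dog left out this median ran from -1.04 without affected 2 to 0.10 without affected 3, and it was -0.06 without control 2. MYH7, the slow beta myosin heavy chain, was at 13.45, 14.87, 11.26 and 13.21 log2 in affected dogs, against 13.52, 14.99, 12.81 and 14.08 in control dogs, and differed by -0.65 ± 0.69. Its 5 probe sets had differences from -1.51 to -0.62, and the alpha heavy chain MYH6, which is close to it in sequence, was not named on the array, so the signal may hold both. TTN, the giant spring protein titin, differed by -0.58 ± 0.76, and the M-band proteins MYOM1 and MYOM2 by -0.60 ± 0.73 and -1.47 ± 0.95. MYOM2 was widest of these over the dogs, with 5.88 log2 units between 12.38 in control 2 and 6.50 in affected 3.

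Of the thin filament genes, 7 of 10 had a negative difference and 0 passed, with a median of -0.35. This median was 0.14 without affected 3, 0.13 without control 2 and -0.99 without affected 2. Troponin I (TNNI3) and troponin T (TNNT2), the inhibitory and tropomyosin-binding partners of TNNC1, differed by -0.80 ± 1.02 and -0.64 ± 0.82. TNNI3 was at 12.32, 13.66, 9.07 and 12.21 log2 in affected dogs, against 12.16, 14.67, 10.47 and 13.17 in control dogs, so the same dogs stood at the ends as for TNNC1. The tropomyosin TPM1 differed by -0.21 ± 0.57, with 2 other probe sets at 0.31 and -1.24. The pointed-end cap TMOD1 differed by -0.86 ± 0.44, with 2 other probe sets at -0.62 and -0.02. ACTA1, the skeletal alpha actin that the fetal and stressed heart also makes, differed by 0.19 ± 0.44, with 2 other probe sets at -0.64 and -0.33.

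Of the Z-disc and costamere genes, the class of MYOZ2 and ANKRD1, 13 of 16 had a negative difference and 0 passed, with a median of -0.52, which ran from -0.78 without affected 2 to -0.21 without control 2. ACTN2, the alpha-actinin that crosslinks thin filaments, differed by -1.09 ± 0.89. Its 2 other probe sets were at -1.47 and -1.52. MYPN, which anchors ANKRD1 in the sarcomere, differed by -0.86 ± 0.91, the actin-binding NEXN by -1.25 ± 0.72, the LIM protein FHL2 by -0.96 ± 0.48 and PDLIM5 by -1.77 ± 1.10, with affected 3 at the floor for PDLIM5. The small heat shock protein HSPB6 was at 9.46, 10.09, 9.72 and 9.59 log2 in affected dogs, against 10.26, 11.10, 10.63 and 10.08 in control dogs, with only affected 2 above the lowest control. It differed by -0.80 ± 0.28 (limma adjusted p = 0.549) and is the 1 gene of the 56 at an unadjusted p under 0.05. The intermediate filament protein DES differed by 0.33 ± 0.79, the titin cap TCAP by -0.06 ± 0.88 and the chaperone CRYAB by 0.06 ± 0.36.

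Of the calcium handling genes, 8 of 9 had a negative difference and 0 passed, with a median of -0.66, which ran from -1.07 without affected 2 to -0.32 without control 2. RYR2, which releases calcium from the sarcoplasmic reticulum, differed by -0.96 ± 0.62, the calcium sensor S100A1 by -0.87 ± 0.44 and the sodium-calcium exchanger SLC8A1 by -0.81 ± 0.76. The calcium pump ATP2A2 differed by -0.20 ± 0.58 in the brightest of its 10 probe sets, and the others ranged from -0.91 to 0.40. Of the genes of muscle energy and oxygen supply, 7 of 8 had a negative difference and 0 passed, with a median of -0.66. This median was 0.08 without control 2, -0.17 without affected 3 and -1.29 without control 3. The fatty acid carrier FABP3 differed by -1.56 ± 1.01, but its other probe set by only -0.19 ± 0.38. The glycolytic PGAM2 differed by -1.41 ± 1.18. The mitochondrial creatine kinase CKMT2 differed by -0.63 ± 0.99, with other probe sets at -0.72 and 0.08. Myoglobin (MB) differed by -0.53 ± 0.75, with another probe set at -1.14. The errors of PGAM2 and of the brightest FABP3 probe set come with ranges of 7.38 and 6.22 log2 units over the 8 dogs.

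**Figure D4:**
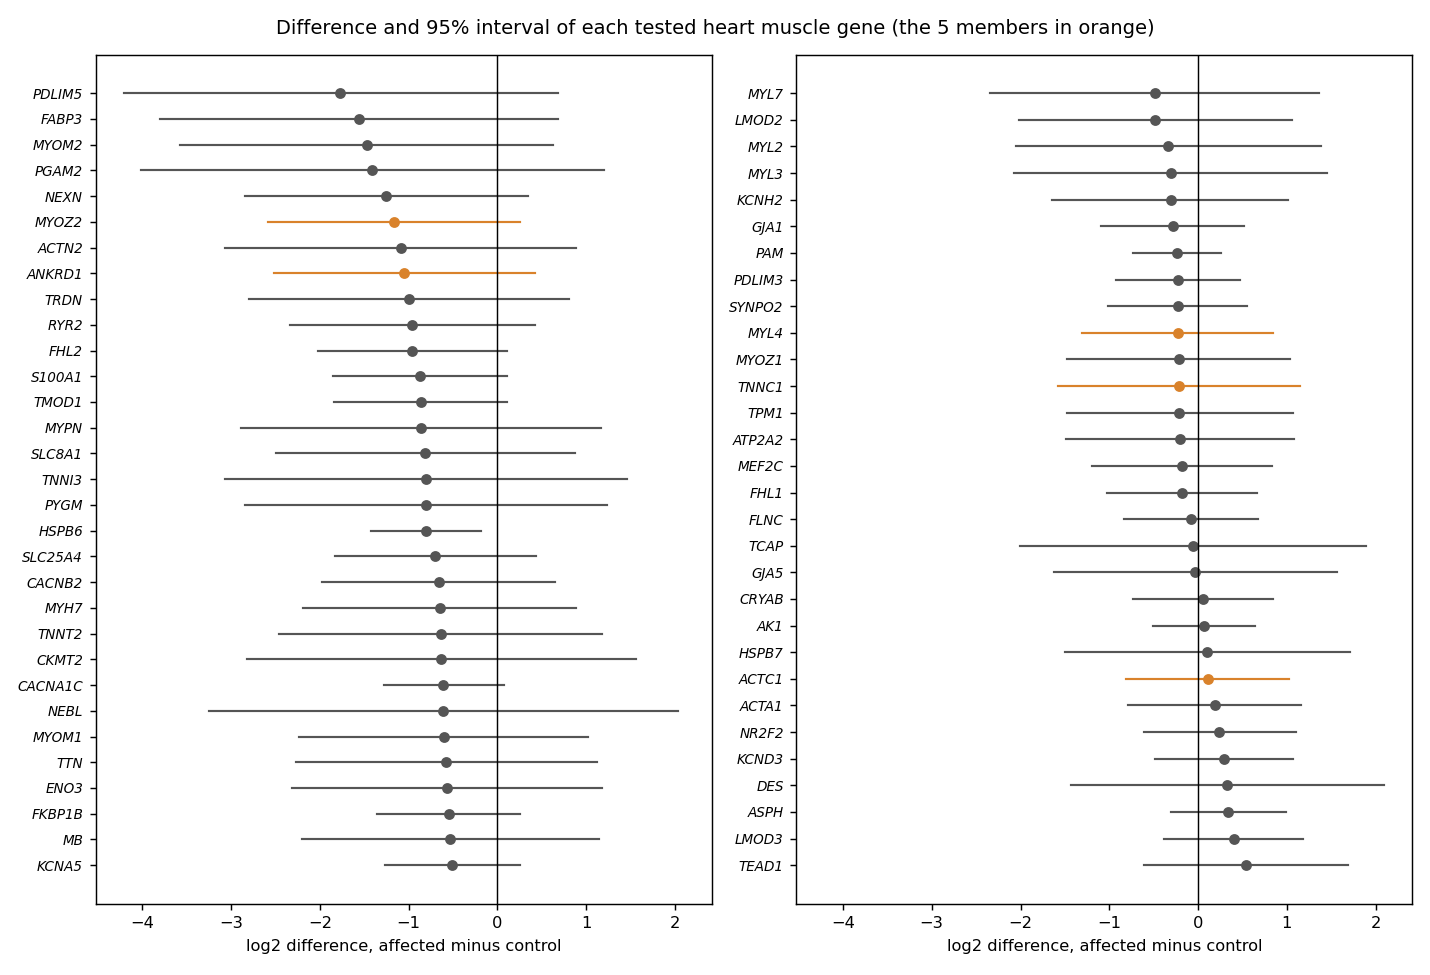
Log2 difference, affected minus control (x axis), with its 95% interval from limma for the 61 tested heart muscle genes, ordered from the lowest. The 5 members are orange, all other genes grey. MYOZ2 and ANKRD1 lie among the lowest, MYL4, TNNC1 and ACTC1 nearer 0, and the interval of HSPB6 alone leaves out 0.

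The label of atrial muscle was checked on genes enriched in atrium and in ventricle. MYL7, the regulatory myosin light chain of atrial muscle, was at 13.15, 13.99, 10.03 and 13.41 log2 in affected dogs, against 12.74, 14.42, 11.72 and 13.65 in control dogs. It was well above the floor of 5.10 in all 8 leaflets and followed the order of the members at both ends. MYL2, its counterpart in ventricular muscle, was at 10.60, 8.73, 7.33 and 7.37 in affected dogs, against 7.32, 9.48, 8.53 and 10.05 in control dogs. It was highest in affected 1, which ranked 5 of the 8 dogs by the member mean. Control 1, affected 3 and affected 4 were nearly equal at the bottom, with ranks 4, 8 and 6. Pearson's r over the 8 dogs with the member mean was 0.91 for MYL7 and 0.48 for MYL2, as a description of arrays that share their scaling. Of the other atrium-enriched genes, the brightest probe sets gave r = 0.87 for GJA5, 0.55 for PAM, 0.04 for KCNA5 and -0.37 for NR2F2. Other probe sets of PAM had r = 0.86 and 0.46, and another of KCNA5 had -0.09. MYL7 and GJA5 thus followed the members closely, PAM only by 1 of its probe sets, and KCNA5 and NR2F2 did not. MYL3, the ventricular essential light chain, was at 11.20, 11.95, 8.35 and 9.72 in affected dogs, against 10.35, 12.26, 9.30 and 10.57 in control dogs. It had the same dogs at both ends as the members (r = 0.93), and MYL2 and MYL3 were above the floor in all 8 leaflets too. MYH7, which both chambers can make, had r = 0.98. Members included, of the atrium-enriched genes 6 of 16 were tested, with 5 negative differences, and of the ventricle-enriched genes 3 of 9, with 3 negative differences. None of them passed. Without affected 3 the medians of these lists, -0.23 and -0.34 with all dogs, were 0.12 and 0.06. The connexin GJA5, of atrial and conducting muscle, differed by -0.03 ± 0.72 and the atrial potassium channel KCNA5 by -0.51 ± 0.34, with another probe set at -0.79 ± 0.43. The peptide-amidating enzyme PAM differed by -0.24 ± 0.22, with other probe sets at -0.68 ± 0.45 and -0.87 ± 0.29. NR2F2, an atrial transcription factor also made by other cells, differed by 0.24 ± 0.39. The natriuretic peptide genes NPPA and NPPB, SLN and most cardiac transcription factors were not named on the array and are not analysed here. The signal thus includes light chains of atrial and of ventricular muscle, and these few genes do not settle the chamber of the muscle.

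The other lists gave 4 negative differences of 5 for ion channels and connexins and 3 of 4 for stress genes, ANKRD1 and MYH7 among them, with 0 passed and medians of -0.28 and -0.42. Without control 2 the channel list was at 0.22 and the stress list at -0.31. Of the cardiac transcription factors only MEF2C and TEAD1 were tested, and they differed by -0.18 ± 0.45 and 0.54 ± 0.52.

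The genes whose pattern over the 8 dogs was most like the member mean, by Pearson's r among 5433 other genes, were largely muscle genes. The 15 most like had r from 0.97 to 0.99, and from 0.92 to 0.99 over 6 dogs without control 2 and affected 3, the dogs farthest from the median. They were MYOM1, B3GALT2, TRDN, FABP3, MYH7, CMYA5, ACTN2, TECRL, ENO3, TNNI3, USP25, MYOM2, FSD2, PPP1R14C and UNC45B, and 8 of them were on the heart muscle lists. CMYA5 is a large protein of the muscle costamere and UNC45B the chaperone of muscle myosin. TECRL is known for its part in calcium-driven arrhythmia. Spearman's rho was 1.00 for B3GALT2, FABP3, MYH7, CMYA5 and FSD2, that is, the 8 dogs stood in the same order. Of the 15, 8 were still among the 15 most like without the 2 dogs. Least like were BAX, a promoter of cell death, with r = -0.92 (-0.80 without the 2 dogs), RNF103, ACOT8, STT3A and RPN1, of which STT3A and RPN1 belong to the complex that glycosylates proteins. No p is given, since the genes were picked for their likeness. Among the 56 heart muscle genes the median r was 0.89 and 34 had r of at least 0.8, against 4.95% of all genes ranked.

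Of 21 listed skeletal muscle genes, 7 were bright enough to test, with 2 negative and 5 positive differences and a median of 0.23. MYBPC2, a fast muscle myosin-binding protein, differed by 0.85 ± 0.28 (limma adjusted p = 0.537), MYBPC1, a slow muscle form, by -1.11 ± 0.79 (r = 0.96 with the member mean) and ATP2A1, the fast muscle calcium pump, by 0.38 ± 0.33. Smooth muscle and myofibroblast genes had 7 of 9 differences above 0, a median of 0.53 and 0 passed, with ACTG2 at 1.09 ± 0.47, CALD1 at 0.69 ± 0.34 and the kinase MYLK at -0.91 ± 0.45.

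Markers of other leaflet cells also differed over the dogs, and their part in the heart muscle values was not tested. By the mean, 9 of 9 tested macrophage genes, 7 of 7 endothelial and 7 of 8 fibroblast genes were higher in affected dogs. All 4 tested fat cell genes were lower, against 50.5% lower over all genes. The summed signals of the macrophage, endothelial and fat cell lists, given below, did not overlap between the groups. For the valve interstitial cell and fibroblast list, 8 of 12 genes were tested and the summed signal ran from 103162 to 155491 in affected dogs and from 45782 to 128393 in control dogs. Its mean log2 signal was 11.30 in control 2, the dog with the most muscle signal, against 13.29 to 13.80 in the other controls. In affected 2, with nearly as much muscle signal, it was 13.71, within the range of 13.30 to 13.92 of the affected dogs. For the macrophage list, 9 of 9 were tested, the sums ran from 12371 to 26063 in affected dogs and from 893 to 10706 in control dogs, and control 2 was again the lowest. In every control MARCO did not exceed the floor. FCER1G was at the floor in 3 controls and FCGR1A in control 2, so the differences of these 2 genes depend on where the floor is set. For the endothelial list, 7 of 10 were tested, with sums from 16246 to 28426 in affected dogs and from 8590 to 12111 in control dogs. For the fat cell list, 4 of 7 were tested, with sums from 799 to 1547 in affected dogs and from 3534 to 12348 in control dogs. ADIPOQ was at the floor in control 2, and CD36 and LPL are also made by heart muscle. The 3 genes with the smallest p were VIM, FBN1 and POSTN at 0.53 ± 0.27, 0.95 ± 0.38 and 1.81 ± 0.94 for fibroblasts, NOS3, ENG and PECAM1 at 1.07 ± 0.29, 1.27 ± 0.35 and 1.01 ± 0.34 for endothelium, FCER1G, CD14 and FCGR1A at 2.91 ± 0.44, 2.09 ± 0.45 and 3.53 ± 0.77 for macrophages, and CD36, LPL and ADIPOQ at -2.22 ± 0.45, -1.70 ± 0.39 and -2.82 ± 1.36 for fat cells. None of these passed at the adjusted threshold, and 0 of 8 listed red blood cell genes were named.

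**Figure D5:**
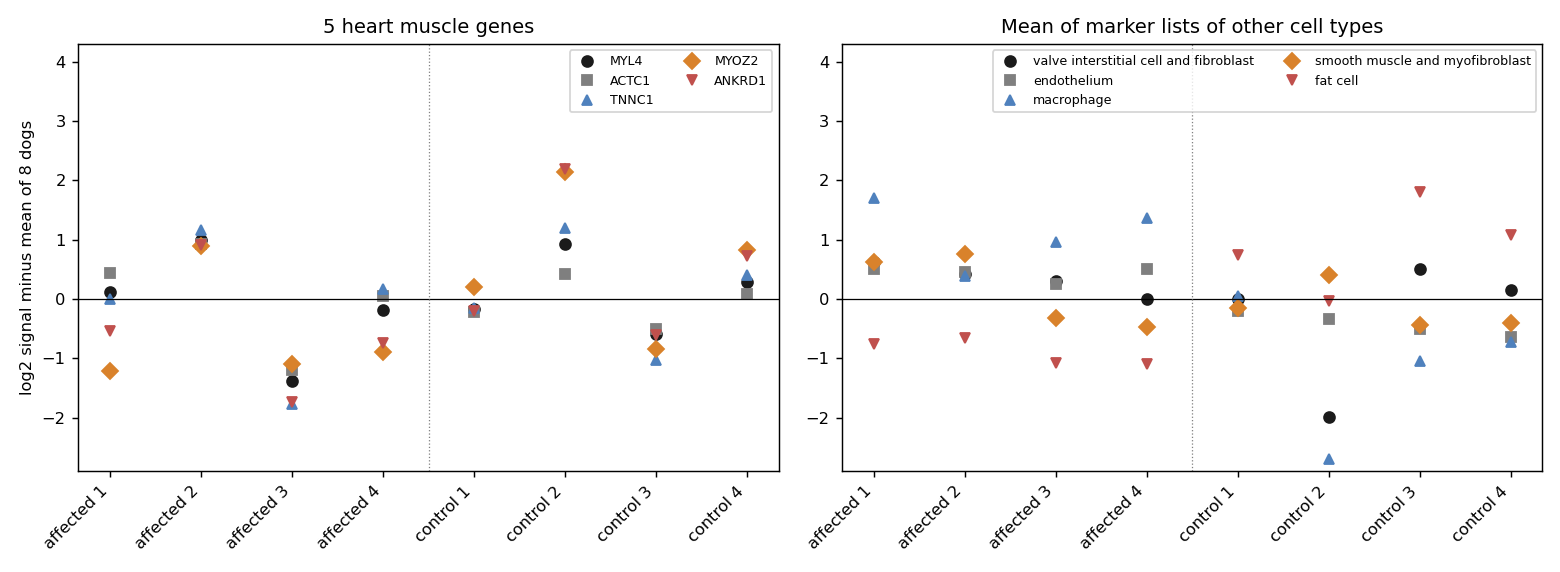
Log2 signal minus the mean of the 8 dogs (y axis) for each dog (x axis), for the 5 heart muscle genes (left) and for the means of 5 marker lists of other cell types (right). The heart muscle genes are high in affected 2 and control 2 and low in affected 3, while the fibroblast and macrophage lists are lowest in control 2.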

How the data were processed

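Per the labels, leaflet RNA of each dog was hybridised to its own Affymetrix array. MAS5 made the deposited intensity of every probe set, on a linear scale, per the submitters' processing notes; its version was not stated. Scaling every array to 1 trimmed mean takes total signal as equal, so an abundant class of RNA could lower other signals. The platform annotation gave 1 symbol for 10549 of 23913 rows, several for 138 and none for 13226. The identifiers of all 5 members were found in RefSeq (UU_Cfam_GSD_1.0). Without a build in the files no coordinates are given.

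Signals were rescaled to the common trimmed mean (2% left out at each end), floored at the 20th percentile (34.2, or 5.10 on the log2 scale) and log2 transformed. Tests covered probe sets above the 40th percentile of the array on 4 or more arrays; 77 control probe sets were left out. Groups were compared with limma 3.58.1 (R 4.3.3), lmFit and eBayes with a trend, two-sided, Benjamini-Hochberg adjusted over 14705 probe sets at 0.05, and tested on simulated data. A gene was represented by its brightest tested probe set. Named were the members, tested genes of the heart muscle lists, the 3 genes of smallest p of other cell lists, and the 15 most and 5 least like the member mean. Members and lists were chosen with earlier results of these data known. Alternatives covered normalization, filter, floor (or a pseudocount of 16), variance model, array weights, replicate block and leaving out dogs. The labels call the samples biological replicates. A planned description of promoter motifs was not made, since no promoter sequence was used here.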

Additional observations from a re-analysis of the deposited data

Results flagged for a closer look

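Of 50 sets of 4 dogs checked for an outlying dog, covering members, list means and ratios, in 2 a dog stood apart, and chance gives this in about 1 in 20 such sets. In affected dogs MYOZ2 was at 12.55 log2 in affected 2 and between 10.43 and 10.75 in the other affected dogs, a gap of 0.847 of the whole range. In control dogs the mean of the ion channel and connexin list was 9.99 in control 2 and between 8.52 and 8.76 in the others, a gap of 0.838 of the range.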

How the results depend on the processing

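No member passed the threshold under any of the 21 alternatives, and MYOZ2 and ANKRD1 kept a negative difference in all of them, from -1.65 to -0.46 and from -1.53 to -0.09. Their smallest differences, -0.46 ± 0.58 and -0.09 ± 0.48, came from leaving out control 2 and affected 3 together, so little was left of that of ANKRD1. The median over the 5 members ranged from -0.64 to 0.19 with a dog left out. Left out together, control 2 and affected 3 gave MYL4 0.46, TNNC1 0.70, a member median of 0.46, a heart muscle list median of 0.42, a spread of the member mean of 1.70 against 2.81 log2 units, and 142 probe sets called in all, none of them a member; these dogs were picked for their muscle signal, and leaving out the highest control and the lowest affected dog raises the difference by construction. With single dogs left out, MYL4 ranged from -0.60 to 0.19, TNNC1 from -0.64 to 0.34 and ACTC1 from -0.18 to 0.52, and ACTC1 was at -0.13 with quantile normalization. Singly left out dogs gave 0 to 1 probe sets called in all and a heart muscle list median from -0.84 to -0.06, while the medians of the atrial, ventricular, thick filament, thin filament, energy, channel and transcription factor lists each turned sign with at least 1 dog left out. Of the 15 genes most like the members, 8 remained without the 2 dogs. The labels do not say whether dogs of the same number belong together. Deviations of same-numbered dogs correlated at -0.12, 0.41, 0.02 and -0.01. Only affected 2 correlated best with the control of its own number. The replicate block lowered the standard errors of all 5 members, from 0.64 to 0.29 for MYOZ2 and from 0.66 to 0.28 for ANKRD1. It called 4 probe sets, with MYOZ2 at an adjusted p of 0.202 and ANKRD1 at 0.228 in limma. Whether the numbers pair the dogs was thus not settled. No saturation flag was used here, so compression of the brightest signals was not tested.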
